A study of Rattus norvegicus with 5 samples.

Results

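Cell cycle and mitosis genes make up the set described here: 39 rat genes, each counted wherever its exact symbol stood in a gene class of a deposited peak or comparison list, out of 20950 named protein-coding genes of the reference. DNA fragments bound by an antibody against N6-methyladenine (6mA, adenine with a methyl group on its amino nitrogen) had been sequenced from Astrocytes, Neurons and NSCs (the SCR022 cell line, adult rat hippocampal neural stem cells). The labels give no genotype, treatment, time or animal age for the groups, and no source of the Astrocytes or Neurons beyond the cell type. Each cell type had 1 immunoprecipitated library, and Neurons and NSCs had 1 input library each. Differences between cell types therefore had no replicate check, and no p was computed here. The cell types could not be checked against marker genes, because peaks on DNA hold no expression values. Immunoprecipitated libraries held 15767015 reads in Astrocytes, 16095308 in Neurons and 15760246 in NSCs, against 22329441 in the Neurons input and 27936774 in the NSCs input. Whether an antibody-bound fragment carries 6mA was not checked by another measure.

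Cells divide by passing through a phase of growth, a phase of DNA synthesis, a second growth phase and mitosis. Cyclins bind cyclin-dependent kinases (CDKs) and switch them on at set phases. CDK inhibitors hold the kinases back. Cdc25 phosphatases activate CDKs. The retinoblastoma protein keeps E2F transcription factors inactive until CDKs phosphorylate it, after which E2F targets such as the MCM helicase genes are transcribed. Neural stem cells of the adult hippocampus divide, whereas neurons have left the cycle for good.

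The promoters of 4 genes, Ccnb1, Cdk1, Cdk2 and Rb1, are shown because only these 4 of the 39 had a region that the deposited files place in a promoter. Sequences are RefSeq windows from 250 bases before to 50 bases after the transcription start on GRCr8, written on the gene's strand; the promoter table held 31 of the 39 genes. The sources used here do not name the genome build of the deposited peaks, so whether a peak covers these 300 bases could not be established. Capitals mark matches on either strand to the CCAAT box (CCAAT, or ATTGG on the other strand), to the cell cycle homology element TTTGAA, and to the E2F motifs TTTGGCGC and TTTCGCGC.
Ccnb1, GRCr8 chr2:33655176-33655475, minus strand: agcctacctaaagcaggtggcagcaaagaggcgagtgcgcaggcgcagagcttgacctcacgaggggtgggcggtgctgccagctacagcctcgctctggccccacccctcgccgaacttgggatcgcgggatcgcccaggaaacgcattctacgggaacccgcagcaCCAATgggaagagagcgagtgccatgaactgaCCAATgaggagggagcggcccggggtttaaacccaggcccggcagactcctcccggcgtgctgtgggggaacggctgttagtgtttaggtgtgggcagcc
Cdk1, GRCr8 chr20:19265043-19265342, plus strand: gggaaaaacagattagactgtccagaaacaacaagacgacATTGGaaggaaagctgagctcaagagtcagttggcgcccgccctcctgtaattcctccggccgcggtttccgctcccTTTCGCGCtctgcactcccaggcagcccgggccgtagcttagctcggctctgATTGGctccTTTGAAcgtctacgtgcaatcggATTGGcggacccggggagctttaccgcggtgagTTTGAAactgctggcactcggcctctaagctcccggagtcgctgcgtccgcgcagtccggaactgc
Cdk2, GRCr8 chr7:1721829-1722128, minus strand: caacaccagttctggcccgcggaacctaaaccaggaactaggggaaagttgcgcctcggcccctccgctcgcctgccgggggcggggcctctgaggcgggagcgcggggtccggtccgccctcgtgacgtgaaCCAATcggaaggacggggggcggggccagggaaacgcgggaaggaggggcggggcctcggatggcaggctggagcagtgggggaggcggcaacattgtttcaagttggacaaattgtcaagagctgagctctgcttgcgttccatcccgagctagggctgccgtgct
Rb1, GRCr8 chr15:54911808-54912107, minus strand: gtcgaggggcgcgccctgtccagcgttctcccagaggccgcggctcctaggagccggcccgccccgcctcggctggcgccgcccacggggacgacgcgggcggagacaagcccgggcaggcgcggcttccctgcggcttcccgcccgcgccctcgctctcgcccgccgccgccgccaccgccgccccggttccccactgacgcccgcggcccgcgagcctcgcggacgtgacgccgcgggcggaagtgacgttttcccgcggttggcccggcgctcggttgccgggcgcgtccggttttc

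The Cdk1 window held matches of 3 kinds: CCAAT boxes on the reverse strand at positions -210, -81 and -49 from the start, TTTGAA at -72 and -16, and the E2F motif TTTCGCGC at -133. The Ccnb1 window held CCAAT boxes at -82 and -50, and the Cdk2 window held 1 at -117. The Rb1 window held none of these letter runs. No match overlapped another. Over all 33469 promoter windows of the table, 37.5% held CCAAT, 18.3% held TTTGAA, 0.493% held TTTGGCGC and 0.326% held TTTCGCGC. All 4 windows were poorer in adenine and thymine than the median window (48.3%), with 20.3% in Rb1, 33.0% in Cdk2, 35.7% in Ccnb1 and 40.3% in Cdk1. They also held more CpG pairs, 55 in Rb1, 26 in Cdk2, 26 in Cdk1 and 21 in Ccnb1, against a median of 7.

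Among the 39 genes, the share with a peak was no higher than that of all genes in any of the 3 cell types. A gene's length went with whether it had a peak. A peak is a region where the authors' caller found more immunoprecipitated than input reads; its score is 10 times the −log10 of the caller's p, with a minimum of 50, and its fold is the enrichment over input. Scores and folds are the authors' own throughout, and the cell types' lists were called separately. At least 1 peak lay in or within 2 kb of 16 of the 39 genes in Astrocytes (41.0%), against 43.1% of all named protein-coding genes. Neurons had peaks at 16 genes as well (41.0%, against 46.1% of all genes), and NSCs at 13 genes (33.3%, against 42.8%). Of the 13 genes under 10 kb in the GRCr8 annotation, 1 had a peak in Astrocytes, 2 in Neurons and 1 in NSCs, where 12.9%, 14.8% and 12.4% of all genes of that length had one. In the class from 10 to 50 kb, 9, 8 and 7 of 19 genes had a peak, against 46.9%, 51.4% and 46.7% of all such genes. Over 50 kb, the counts were 6, 6 and 5 of 7 genes, against 82.5%, 84.7% and 82.4%. The exception among the long genes in every list was Ccnd3, a D-type cyclin annotated over 95.5 kb, which had no region at all; Bub1b, at 52.5 kb, had none in NSCs.

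**Figure D1:**
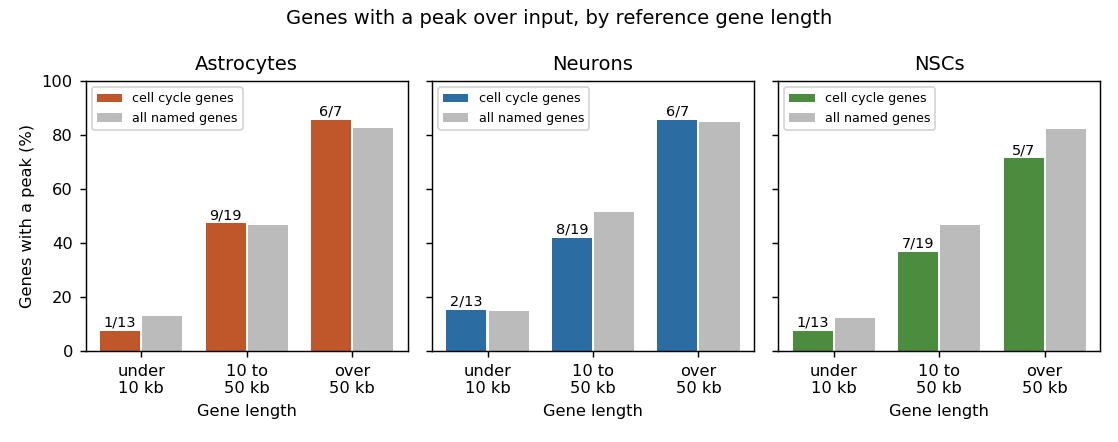
Percent of genes with at least 1 peak over input (vertical axis) by gene length in the reference annotation, for Astrocytes, Neurons and NSCs (1 library each). Coloured bars are the 39 cell cycle genes, with counts above them, and grey bars are all named protein-coding genes; in each cell type both rise together with length.

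Across the 9 lists, 23 of the 39 genes had a region and 16 had none. Those without were the cyclins Ccna2, Ccnb2, Ccnd3 and Ccne1, the kinase Cdk4, the inhibitors Cdkn1b, Cdkn1c and Cdkn2c, the phosphatases Cdc25a and Cdc25b, the transcription factor E2f1, the replication genes Mcm2 and Pcna, and the mitotic kinases Aurka, Aurkb and Plk1. Mcm3 and Cdc20 had regions only in the comparisons between cell types, which leaves 21 genes with a peak over input. Of these, 9 had a peak in all 3 cell types: Ccnd2, Cdk1, Cdk6, Cdk14, Rb1, E2f3, Mcm6, Cdca8 and Cit. Astrocytes and Neurons, but not NSCs, listed Ccna1, Mcm5, Bub1 and Bub1b, whereas Neurons and NSCs listed Ccnd1 and Cdc25c. Peaks in 1 cell type alone were listed for Ccne2, Cdk2 and Mki67 in Astrocytes, for Ccnb1 in Neurons, and for Cdkn1a and Top2a in NSCs. How many of all named protein-coding genes follow each of these patterns was not counted. The patterns are therefore a listing and do not set these genes apart from others. Absence from a list says that the caller's minimum was not reached at this depth, not that the signal is 0.

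**Figure D2:**
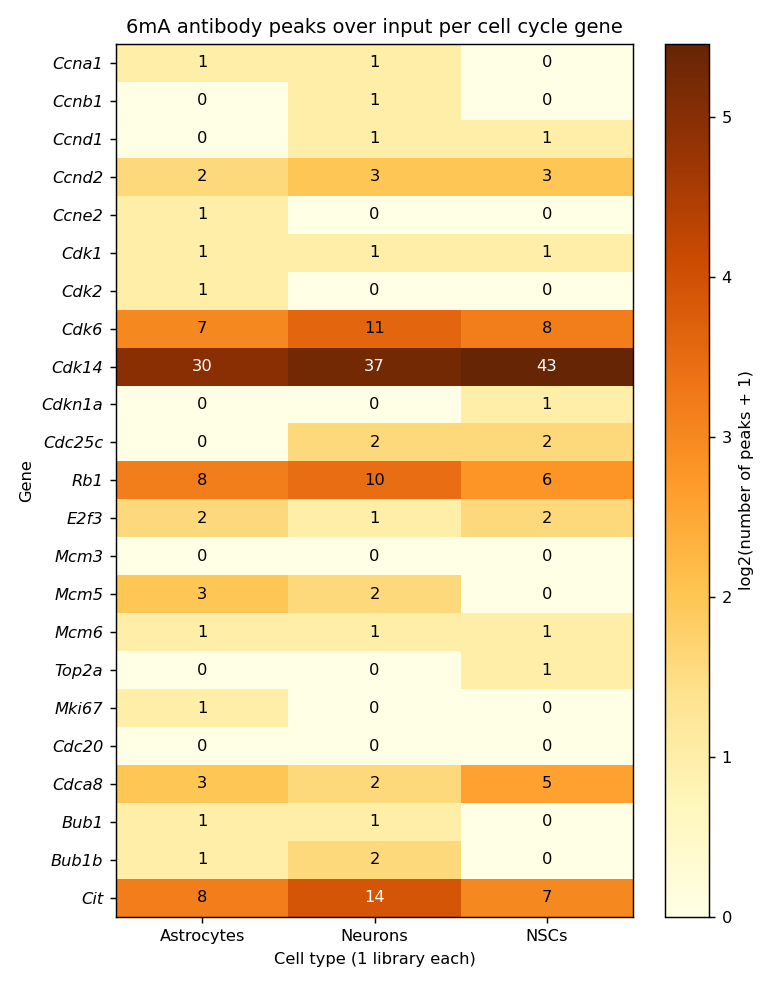
Number of peaks over input in each of the 23 cell cycle genes with any region (rows, grouped by role from cyclins to cytokinesis) in Astrocytes, Neurons and NSCs (columns, 1 library each); the colour is log2 of the number plus 1. Cdk14 stands out with 30, 37 and 43 peaks, and most other genes hold from 0 to 3; Mcm3 and Cdc20 are at 0 because their regions are in the comparison lists only.

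The 71 peaks in Astrocytes, 90 in Neurons and 81 in NSCs were spread very unevenly over the genes. Cdk14, Cit, Rb1 and Cdk6 together held 53 of the peaks in Astrocytes (74.6%), 72 in Neurons (80.0%) and 64 in NSCs (79.0%). These 4 are also the longest of the 39, at 594, 162, 131 and 192 kb. Nearly every peak lay in an intron: 69 of 71 in Astrocytes (97.2%), 86 of 90 in Neurons (95.6%) and 80 of 81 in NSCs (98.8%), where 88.2%, 87.7% and 88.3% of all peaks named for a gene did. Promoter peaks numbered 2 in Astrocytes (2.82%), 1 in Neurons (1.11%) and 1 in NSCs (1.23%), against 7.79%, 8.29% and 7.84% of all such peaks. These shares were not counted alike. A peak of the 39 genes needed its own gene named in the class, whereas any named gene sufficed for all peaks. Cdk14 alone held 30, 37 and 43 of the peaks in Astrocytes, Neurons and NSCs, all intronic. The median fold of the peaks was 12.7, 12.2 and 11.3 in Astrocytes, Neurons and NSCs, beside 12.3, 12.1 and 12.2 over all peaks.

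Among the cyclins, Ccnd2, a D-type cyclin that activates Cdk4 and Cdk6 early in the cycle, was the only one with a peak in all 3 cell types. Its intronic peak on chromosome 4 reached 24.18-fold in Astrocytes (159683471-159684006), 22.94-fold in Neurons (159683404-159683959) and 23.82-fold in NSCs (159683434-159683983). Further Ccnd2 peaks were weaker and shared by fewer cell types. An intronic one stood at 15.27-fold in Astrocytes (159677135-159677462) and 13.28-fold in Neurons (159677064-159677376). Another, over an exon and intron, stood at 12.07-fold in Neurons (159685409-159685712) and 11.97-fold in NSCs (159685211-159685688). The authors' deposited tables listed that place at 11.74-fold for NSCs over Astrocytes and at 11.49-fold for Neurons over Astrocytes. NSCs alone had a peak of 10.03-fold over an exon and intron near a CpG island (159695243-159695534). Ccnd1, the other D-type cyclin with peaks, had an exon peak of 7.23-fold in Neurons (chr1:218091177-218091569) and an intron peak of 9.21-fold on a CpG island shore in NSCs (chr1:218096743-218097127). Neurons had no peak over input on that shore, but the authors' deposited table of Neurons over Astrocytes listed it (218096855-218097097) at 10.61-fold. Ccna1, an A-type cyclin best known from the mouse testis, had an intron peak of 6.72-fold in Astrocytes and 10.15-fold in Neurons.

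Ccnb1, which encodes cyclin B1, the partner of Cdk1 at entry into mitosis, had its single peak at the gene's start in Neurons. The region chr2:30790973-30791405 was annotated as promoter, upstream, exon and intron, overlapped a CpG island, and had a fold of 11.49 with a score of 61.92. In the authors' deposited table of regions higher in Neurons than in Astrocytes, the overlapping region 30791105-30791405 had a fold of 7.89. Neither table of Neurons and NSCs listed it. Ccne2, an E-type cyclin that acts with Cdk2 at the start of DNA synthesis, had a peak of 8.40-fold downstream of the gene in Astrocytes, in a region that also names Ints8.

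Cdk14, a kinase that acts with cyclin Y in Wnt signalling and in mitosis, carried more peaks than any other of the 39 genes. There were 30 in Astrocytes, 37 in Neurons and 43 in NSCs, spread over 566 kb of chromosome 4. Per 100 kb of annotated gene, however, these were 5.05, 6.22 and 7.23 peaks, and shorter genes were denser, among them Cdca8 with 13.5, 8.99 and 22.5 and Ccnd2 with 8.94, 13.4 and 13.4. All Cdk14 peaks were intronic, and most were modest: 18, 19 and 28 of them lay under 15-fold, and their medians were 13.3, 14.5 and 12.5. Folds of at least 30 were reached by 7 peaks in Astrocytes, 10 in Neurons and 6 in NSCs, all between 26145740 and 26366882, the stretch from 314 to 536 kb past the first peak. Of 65 merged Cdk14 loci, 16 had a peak in all 3 cell types (24.6%, against 25.2% of loci named for any gene). Another 17 were in NSCs only (26.2%, against 16.8%), 13 in Neurons only (20.0%, against 22.5%) and 6 in Astrocytes only (9.23%, against 15.4%).

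The strongest Cdk14 peaks were shared, with folds that differed between the lists. The region around 26184709-26185872 had a fold of 74.56 in Astrocytes, 83.20 in Neurons and 43.40 in NSCs. Its score was 3100 in each list, a value reached or passed by 0.381%, 0.347% and 0.203% of all peaks and by no other peak of the 39 genes. The largest fold of any cell cycle peak in Neurons was 84.48, at 26208771-26209481, and 0.709% of all Neurons peaks had a larger one. That locus stood at 32.3-fold in Astrocytes and 39.05-fold in NSCs. In NSCs the largest was 57.23, at 26202561-26203304, where Neurons had 57.90 and Astrocytes 23.78. An intron locus at 26221871-26223190 stood at 45.81-fold in Astrocytes, 35.03-fold in Neurons and 15.96-fold in NSCs.

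**Figure D3:**
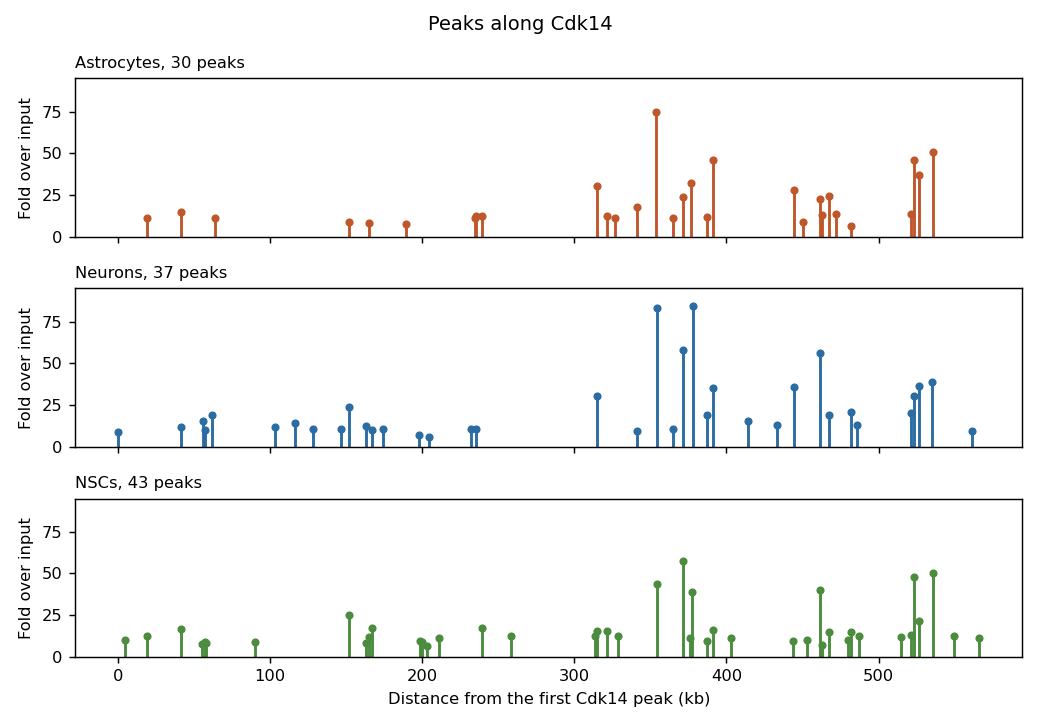
Fold over input (vertical axis) of each Cdk14 peak against its distance in kb from the first Cdk14 peak of any cell type (horizontal axis), with Astrocytes above, then Neurons and NSCs; each stem is 1 peak of 1 library. All stems of 30-fold or more stand between 314 and 536 kb, and the stems before that are lower in each panel.

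Cdk6, the D-type cyclin kinase that phosphorylates the retinoblastoma protein, had 7 peaks in Astrocytes, 11 in Neurons and 8 in NSCs. Its strongest lay in an intron at chr4:27924640-27925730, with 29.35-fold in Astrocytes, 40.60-fold in Neurons and 38.08-fold in NSCs and scores of 764.13, 860.76 and 920.46. Cdk6 peaks were shared by all cell types at 3 of 16 loci (18.8%, against 25.2% of loci named for any gene). Neurons had the only one outside an intron, over an exon and the downstream flank (27785574-27785944), at 10.87-fold.

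Cdk1, the kinase that drives mitosis, had 1 intronic peak in each cell type at the same place on chromosome 20. Its fold was 23.83 in Astrocytes (20589660-20590485), 19.41 in Neurons (20589740-20590438) and 29.21 in NSCs (20589677-20590359), and none of the comparison lists held it. A second Cdk1 region, at 20574417-20574816 in the promoter and upstream classes on a CpG island shore, appeared in the authors' deposited table of regions higher in NSCs than in Neurons, at 9.87-fold with a score of 54.89. No peak over input of any of the cell types overlapped it. Cdk2, the kinase of E- and A-type cyclins, had a peak in Astrocytes alone, at chr7:3132563-3132869 in the promoter and upstream classes and on a CpG island, with a fold of 9.87 and a score of 50.84. That region also names Pmel. The same region stood at 11.31-fold in the authors' deposited table of Astrocytes over NSCs and was not in the table of Astrocytes over Neurons. A Cdk2 exon region on the island's shore, 3130952-3131342, was at 9.29-fold in the authors' deposited table of Astrocytes over NSCs and at 9.71-fold in that of Astrocytes over Neurons, with no peak over input there.

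Of the 4 CDK inhibitors only Cdkn1a, which encodes p21 and arrests the cycle downstream of p53, had a peak. It lay downstream of the gene in NSCs (chr20:6359709-6360330), with a fold of 7.56 and a score of 70.22. In the authors' deposited tables the same place was higher in NSCs than in Neurons at 7.39-fold and higher in NSCs than in Astrocytes at 5.55-fold; the NSCs library is common to both. Cdc25c, the phosphatase that activates Cdk1 at mitosis, had 2 intron peaks in Neurons and 2 in NSCs, and 1 of its loci was shared. The shared locus was at 10.21-fold in Neurons (chr18:27535522-27536030) and 8.70-fold in NSCs (chr18:27535670-27536108). The unshared peaks stood at 12.64-fold in Neurons (27538004-27538406) and 9.08-fold in NSCs (27542926-27543494).

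Rb1, which encodes the retinoblastoma protein, had 8 peaks in Astrocytes, 10 in Neurons and 6 in NSCs, and a promoter peak in 2 of the 3 cell types. In the promoter and intron classes, Astrocytes had the region chr15:55208290-55208924 at 16.54-fold with a score of 206.92. NSCs had 55208445-55208749 in the same classes at 7.52-fold with a score of 51.57. Neither region was on a CpG island or shore. Neurons had no peak there. In the authors' deposited tables the promoter region was higher in Astrocytes than in NSCs at 7.06-fold and higher in Astrocytes than in Neurons at 5.88-fold; the Astrocytes library is common to both. The strongest Rb1 peak was intronic and alike in its fold in the 3 lists, with 54.46 in Astrocytes (55131437-55131916), 48.04 in Neurons (55131558-55131999) and 51.19 in NSCs (55131550-55131934). A peak of 8.55-fold downstream of Rb1 was listed in Neurons only (55080862-55081205). E2f3, an activating E2F, shared 1 intronic peak on chromosome 17 across the cell types, at 17.02-fold in Astrocytes, 17.41-fold in Neurons and 13.74-fold in NSCs; weaker peaks of 8.33-fold in Astrocytes and 11.28-fold in NSCs were at different places.

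Among the genes of DNA replication, the MCM genes encode subunits of the replicative helicase. Mcm5 had 3 peaks in Astrocytes and 2 in Neurons, and none in NSCs. Its peak over an exon and intron on chromosome 19 was at 12.87-fold in Astrocytes (14556130-14556670) and 12.88-fold in Neurons (14556106-14556643). At that place the authors' deposited tables gave 17.31-fold for Astrocytes over NSCs and 15.37-fold for Neurons over NSCs. A further Mcm5 exon and intron peak stood at 13.24-fold in Astrocytes (14553613-14554028) and was at 6.22-fold in the authors' deposited table of Astrocytes over Neurons. Mcm6 had 1 intron peak per cell type, but not at the same place: Astrocytes had 11.45-fold (chr13:45060441-45060834) and Neurons 14.55-fold (chr13:45060459-45060780), whereas the NSCs peak of 9.75-fold lay at 45058207-45058568. Mcm3 was in the comparison lists alone. Its exon region chr9:26926454-26926843 was at 7.89-fold in the authors' deposited table of NSCs over Neurons and at 9.30-fold in that of NSCs over Astrocytes, while an intron region (26914894-26915235) was higher in Astrocytes than in NSCs at 9.30-fold.

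Top2a, the topoisomerase that untangles replicated chromosomes, had its only peak over an exon and intron in NSCs, at chr10:86917168-86917567, with a fold of 9.54 and a score of 50.61. The authors' deposited tables gave the place 13.57-fold for NSCs over Neurons and 10.85-fold for NSCs over Astrocytes, 2 comparisons with the NSCs library in common. Mki67, whose protein Ki-67 coats mitotic chromosomes and marks dividing cells, had an intron peak in Astrocytes alone, at 8.52-fold with a score of 59.60. It was at 10.63-fold in the authors' deposited table of Astrocytes over NSCs. Both peaks were near the caller's minimum score of 50.

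Cit, which encodes citron kinase of the cytokinetic furrow and, from another start site, a form found at neuronal synapses, had the most peaks of the mitosis genes. It held 8 in Astrocytes, 14 in Neurons and 7 in NSCs, at 14 merged loci. Of these loci, 6 were in all 3 cell types (42.9%, against 25.2% of loci named for any gene). Another 5 were in Neurons only (35.7%, against 22.5%). The Cit peak of largest fold in Neurons, on chromosome 12, was at a locus that stood at 16.21-fold in Astrocytes (46461402-46461952), 31.38-fold in Neurons (46461506-46461906) and 19.15-fold in NSCs (46461435-46461875). The largest Cit folds of the other cell types lay elsewhere, 17.16 in Astrocytes (46470756-46471305) and 23.12 in NSCs (46427605-46428125). A locus at 26.18-fold in Neurons (46445986-46446658) was at 10.66-fold in Astrocytes (46446081-46446582) and had no peak in NSCs. The peaks in Neurons only ranged up to 16.23-fold (46395179-46395762). Cit exon peaks were at 9.08-fold in Astrocytes (46335832-46336260), and at 7.74-fold (46335888-46336319) and 6.53-fold (46399253-46399896) in Neurons. At 46335832-46336260 the authors' deposited tables gave 13.20-fold for Astrocytes over NSCs, and at 46335888-46336319 they gave 9.14-fold for Neurons over NSCs. A further Cit exon region, 46353251-46353651, was at 10.52-fold in the authors' deposited table of Astrocytes over NSCs, with no peak over input there.

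Cdca8, which encodes borealin of the chromosomal passenger complex, had all its peaks packed within 5.7 kb of its introns on chromosome 5. There were 3 in Astrocytes, 2 in Neurons and 5 in NSCs, with folds of 5.53 to 9.36 in Astrocytes, 9.56 and 11.81 in Neurons, and 4.68 to 12.89 in NSCs. Bub1 and Bub1b, kinases of the spindle checkpoint, had peaks in Astrocytes and Neurons at different places. Bub1 had an intron peak of 10.18-fold in Astrocytes, which the authors' deposited tables gave at 8.11-fold over NSCs and 10.40-fold over Neurons. Bub1b had peaks over an exon and intron on chromosome 3, at 16.54-fold in Astrocytes (110413323-110413710) and 12.57-fold in Neurons (110405566-110406232), and Neurons had a further intron peak at 10.87-fold. The Bub1b exon region of Neurons was at 9.71-fold over NSCs and, as 110405566-110406306, at 10.17-fold over Astrocytes in the authors' deposited tables. Cdc20, the activator of the anaphase-promoting complex, had an exon region that also names Elovl1 (chr5:137261125-137261444), at 9.24-fold in the authors' deposited table of Astrocytes over NSCs and at 10.40-fold in that of Astrocytes over Neurons.

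Peaks at places that all cell types shared had larger folds and scores than the others. Sharing required reaching the caller's minimum score in every list, so this contrast follows in part from the definition. It was not tested, no such contrast over all peaks is given, and Cdk14 held 16 of the loci shared by all 3. Merging overlapping peaks of the 39 genes gave 142 loci, of which 32 (22.5%) had a peak in all 3 cell types, against 25.2% of loci named for any gene. A pair of cell types shared 36 loci. Astrocytes and Neurons shared 15 (10.6%, against 7.63% of loci named for any gene). Astrocytes and NSCs shared 9 (6.34%, against 5.03%), and Neurons and NSCs 12 (8.45%, against 7.55%). The other 74 were in 1 cell type: 15 in Astrocytes (10.6%, against 15.4%), 31 in Neurons (21.8%, against 22.5%) and 28 in NSCs (19.7%, against 16.8%). Peaks at loci of all 3 had a median fold of 19.9 (range 5.87 to 84.48) and a median score of 231. Peaks in 1 cell type alone had a median fold of 10.2 (6.00 to 19.32) and a median score of 62.6, not far above the caller's minimum of 50. Peaks in a pair of cell types lay near those in 1, with a median fold of 11.2 and a median score of 72.7. Seen from each list, 45.1% of the Astrocytes peaks in these genes overlapped a peak of both other cell types (exact Clopper-Pearson 95% interval 33.2% to 57.3%), beside 45.8% of all Astrocytes peaks. The share was 35.6% in Neurons (25.7% to 46.3%, all peaks 38.6%) and 39.5% in NSCs (28.8% to 51.0%, all peaks 43.6%). These intervals cover counting error only, and neighbouring peaks of 1 gene are not independent.

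**Figure D4:**
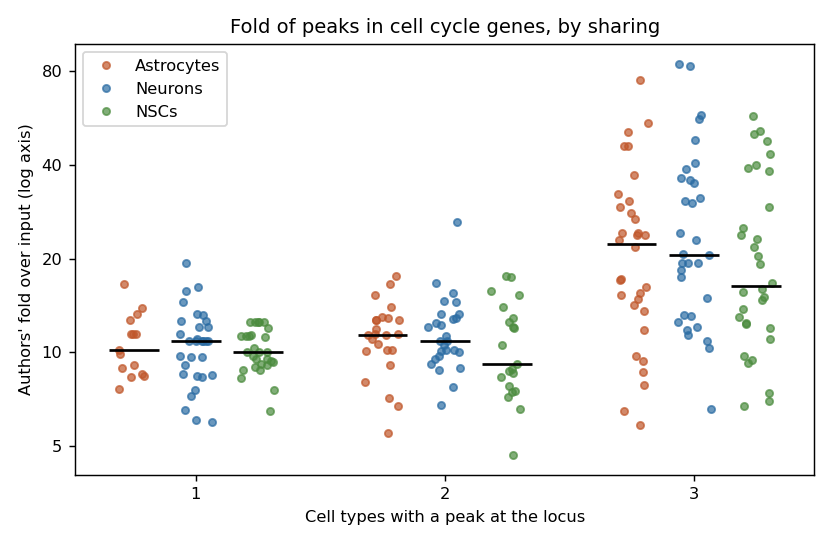
Authors' fold over input (log axis) of each peak in the cell cycle genes, by how many cell types had a peak at its locus and coloured by cell type (1 library each); black bars are medians. Folds above 30 occur only at loci of all 3 cell types, and peaks of 1 cell type stay between 6.00 and 19.32.

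The comparisons between cell types asked which regions were enriched in 1 immunoprecipitated library over another. Each pair has a list per direction; the 2 directions were not called alike, so their lengths are not a measure of balance, and all pairs share libraries. Regions higher in Neurons than in NSCs lay at 9 of the 39 genes (23.1%, against 25.5% of all named protein-coding genes), and regions higher in NSCs than in Neurons at 10 (25.6%, against 22.5%). Ccna1, Ccnd2, Rb1, Mcm5, Bub1 and Bub1b had regions only in the first direction, and Cdk1, Cdk6, Cdkn1a, Mcm3, Mcm6, Top2a and Cdca8 only in the second. Cdk14, Cdc25c and Cit had both. By regions, the counts were 20 for Neurons over NSCs and 23 for the reverse. The first list thus held 46.5% of them, beside 53.8% of all regions of the pair. Neighbouring regions of 1 gene are not independent, and no interval or test is given for such shares. Cit and Cdk14 leaned opposite ways: Cit had 8 regions for Neurons over NSCs and 1 for the reverse, whereas Cdk14 had 4 and 11. Among the 39 genes, the largest fold in the authors' deposited table was 16.04 for Neurons over NSCs (Cdk14, 26245484-26245861). It was 14.81 for NSCs over Neurons (Cdk14, 26345588-26345854). Of all regions in these lists, 3.42% and 3.29% had a larger fold.

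Astrocytes were higher than NSCs at regions of 11 genes (28.2%, against 20.4% of all genes), and NSCs higher than Astrocytes at regions of 10 (25.6%, against 24.3%). The first direction alone held Cdk2, Rb1, Mcm5, Mki67, Cdc20 and Bub1, and the second alone held Ccnd1, Cdkn1a, Cdc25c, Mcm6 and Top2a. Ccnd2, Cdk6, Cdk14, Mcm3 and Cit had regions in both. Of the regions, 19 were higher in Astrocytes and 22 in NSCs. The first list thus held 46.3% of them, beside 40.3% of all regions of the pair. In the authors' deposited tables the largest folds were 18.60 for Astrocytes over NSCs (Cdk14, 26172362-26172829) and 17.85 for NSCs over Astrocytes, at the Ccnd1 intron peak on the CpG island shore (218096743-218097127). The Cdk14 locus with a score of 3100 in each list was itself higher in Astrocytes than in NSCs at 3.38-fold in the authors' deposited table.

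Astrocytes were higher than Neurons at regions of 7 genes (17.9%, against 16.8% of all genes), and Neurons higher than Astrocytes at regions of 9 (23.1%, against 28.0%). Ccne2, Cdk2, Mcm5, Cdc20 and Bub1 were in the first direction only, Ccnb1, Ccnd1, Ccnd2, Cdk6, Cdc25c, Bub1b and Cit in the second only, and Cdk14 and Rb1 in both. Of the regions, 10 were higher in Astrocytes and 26 in Neurons. The first list thus held 27.8% of them, beside 29.5% of all regions of the pair. Cdk14 accounted for 4 of the regions higher in Astrocytes and 10 of those higher in Neurons, and Cit for 0 and 5. Among the 39 genes, the largest folds in the authors' deposited tables were both in Cdk14. They were 11.75 for Astrocytes over Neurons (26302909-26303312) and 12.23 for Neurons over Astrocytes (26316860-26317272). In these lists 21.5% and 16.4% of all regions had a larger fold. The strongest Neurons peak of Cdk14, at 26208771-26209481, was 10.01-fold higher in Neurons than in Astrocytes in the authors' deposited table. Most comparison regions in the 39 genes overlapped a peak over input of the higher library. The counts were 17 of 20 for Neurons over NSCs and 17 of 23 for the reverse. They were 14 of 19 for Astrocytes over NSCs and 18 of 22 for the reverse. For Astrocytes over Neurons they were 8 of 10, with 22 of 26 for the reverse. This overlap was not counted over all regions of the lists, so whether these genes differ from others in it is not known.

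**Figure D5:**
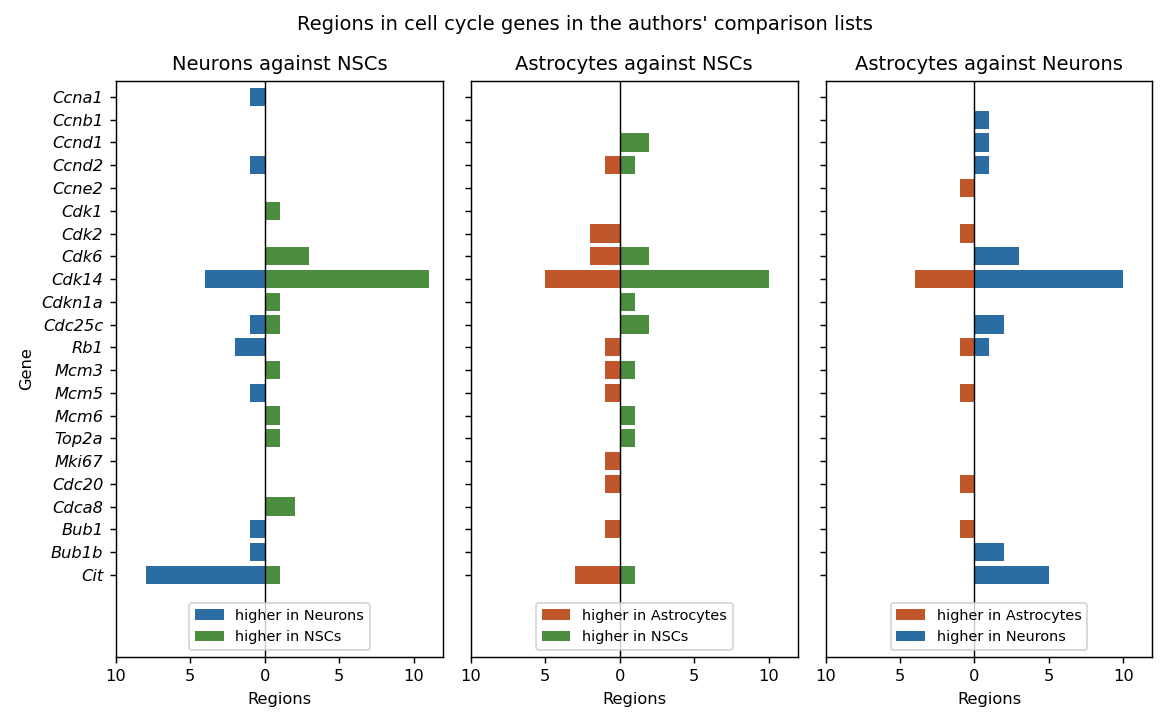
Number of regions per cell cycle gene in the authors' comparison lists, for Neurons against NSCs, Astrocytes against NSCs and Astrocytes against Neurons; bars to the left are regions higher in the first-named cell type, bars to the right regions higher in the second. Cdk14 has 4 and 11, 5 and 10, and 4 and 10 regions, and Cit has 8 and 1, 3 and 1, and 0 and 5.

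Other genes of the cell cycle, 106 in a list made for comparison, were counted the same way. Peaks over input were at 52 of them in Astrocytes (49.1%), 63 in Neurons (59.4%) and 56 in NSCs (52.8%). These shares were above those of all named protein-coding genes (43.1%, 46.1% and 42.8%), whereas those of the 39 genes were below them; gene lengths were not matched for the 106, and the difference was not tested. By function, peaks were at 9, 10 and 9 of 18 other cyclins and CDKs, at 8, 10 and 9 of 19 other inhibitors and Rb or E2F genes, at 8, 12 and 9 of 25 other replication genes, and at 27, 31 and 29 of 44 other mitosis genes. E2f8, an E2F that represses transcription, had the largest fold of its sublist in each cell type, in an intron on chromosome 1, with 84.74 in Astrocytes, 68.20 in Neurons and 63.19 in NSCs. Mnat1, a subunit of the CDK-activating kinase, led its sublist with 27.99, 25.08 and 21.76. Cenpc, which encodes a protein of the inner kinetochore, led the mitosis sublist at 81.44-fold in Astrocytes and 75.22-fold in NSCs, and Anapc4, a subunit of the anaphase-promoting complex, led it at 67.61-fold in Neurons. Gins1, a subunit of the GINS complex of the replicative helicase, led the replication sublist at 33.08-fold in Astrocytes and 32.60-fold in Neurons, and Cdc7, a kinase that fires replication origins, led it at 16.30-fold in NSCs with a promoter peak on a CpG island.

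The authors also tested KEGG pathways, among them a Cell cycle term. In the authors' deposited table the term, with 126 genes, had 54 genes with a peak in Astrocytes where 50.8 were expected, 66 against 55.9 in Neurons, and 60 against 51.2 in NSCs. The adjusted p in the authors' deposited table was 0.845 in Astrocytes, 0.44 in Neurons and 0.514 in NSCs. The observed genes included 12, 13 and 9 of the 39. DNA replication, a term of 36 genes in the authors' deposited table, had 12 in Astrocytes, 18 in Neurons and 14 in NSCs, with 14.5, 16.0 and 14.6 expected and an adjusted p of 0.756, 0.761 and 1.0. The p53 signaling pathway, with 74 genes, had 34, 37 and 34 in the authors' deposited table, with 29.8, 32.9 and 30.1 expected. Its adjusted p there was 0.66, 0.668 and 0.733. Oocyte meiosis, a term of 115 genes that holds several mitotic regulators, had 66, 70 and 71 in the authors' deposited table. The authors expected 46.4, 51.1 and 46.7, and their adjusted p was 0.0891 in Astrocytes, 0.153 in Neurons and 0.0417 in NSCs. Of the 39, only 4, 4 and 2 genes were among those observed.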

How the data were processed

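Genomic DNA was sonicated to 200 to 400 bp, ligated to adapters, denatured, bound by an anti-6mA antibody and eluted with 6mA monophosphate, per the labels' protocols. BWA aligned the reads, per the submitters' processing notes; the sources used here do not name its version, the genome build, the annotation or the caller version. Read counts and mapping rates in percent were deposited by the authors in a summary, whose 1 row of no sample was not used. Which input served the Astrocytes list is not stated. The score deposited by the authors is 10 times −log10 p. Their fold is a ratio over input or, in comparisons, over the lower immunoprecipitated library of the pair. The deposited pathway tables hold observed gene counts, the authors' expected number (an "other" unit) and adjusted p-values.

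The 39 genes and the 106 others were chosen with earlier results of these data known. Symbols were matched exactly in 3 peak lists and 6 comparison lists, and 6 blank lines were skipped. Of the regions higher in the first library, 78.1% to 84.3% matched one of its own peaks exactly, and of those higher in the second, 31.9% to 37.1% did; no region matched a peak of the lower library exactly. Every gene with a region was named. Values were given for promoter, exon and CpG island regions and for the largest fold among the 39 genes in each list. The rule also called for every region of Cdk14, Cit and Cdk6; of these the strongest were given and the others summarised by counts and ranges. The place near Bub1 listed in Neurons is not reported here. Background counts used RefSeq GRCr8 genes and their lengths. An overlap of 1 bp counted as sharing. Alternatives were a stricter score, a stricter fold, the gene body alone and an overlap of 50% of the peak. Counting and overlap steps were tested on simulated regions. Python 3.11.15, pandas 2.3.3, NumPy 2.4.6, SciPy 1.17.1 and Matplotlib 3.10.9 were used.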

Additional observations from a re-analysis of the deposited data

How the results depend on the processing

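The number of cell cycle genes with a region depended on the minimum strength. Shares of all named protein-coding genes at the stricter settings are not given. The lower gene counts therefore do not set these genes apart from others. With scores of at least 87.4 (the median over the 3 peak lists), genes with a peak numbered 10 in Astrocytes and 8 in NSCs. Of the Astrocytes peaks left, 21 of 37 overlapped a peak of both other cell types (56.8%, against 57.1% of all peaks). The counts were 21 of 50 in Neurons (42.0%, against 47.2%) and 21 of 36 in NSCs (58.3%, against 54.4%). The counts of shared peaks thus fell, but their shares rose in each list. With folds of at least 12.1, genes with a peak numbered 9 in Astrocytes and 8 in NSCs. In the comparisons, scores of at least 62.4 left 5 genes for Astrocytes over NSCs, 2 for Astrocytes over Neurons and 5 for Neurons over Astrocytes; folds of at least 9.53 left 7 for Astrocytes over NSCs and 6 for NSCs over Neurons. All other counts under these settings, and all counts with the gene body alone or with an overlap of 50%, stayed within 1.5 times the value above. No paired analysis was possible because each cell type had 1 immunoprecipitated library, and leaving out a replicate was impossible for the same reason. Immunoprecipitated libraries held 15760246 to 16095308 reads, and a region missing from a list may lie just under the minimum score of 50.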

Other observations

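The other 106 cell cycle genes were also counted in the comparisons. Regions higher in Neurons than in NSCs lay at 24 of them (22.6%, against 25.5% of all named protein-coding genes) and regions higher in NSCs than in Neurons at 29 (27.4%, against 22.5%). For Astrocytes over NSCs and NSCs over Astrocytes the counts were 21 genes (19.8%, against 20.4%) and 31 genes (29.2%, against 24.3%). Astrocytes over Neurons and Neurons over Astrocytes gave 24 genes (22.6%, against 16.8%) and 33 genes (31.1%, against 28.0%). Each pair of lists shares a library with the next pair, and the directions of a pair were called differently.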
